A study of Mus musculus with 10 samples.

Results

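H3K27me3, trimethylation of lysine 27 of histone H3, was compared between 2 ways of differentiating the same mouse embryonic stem (ES) cell line, XT67E1. The bins compared were the 10 kb bins of chromosomes 1 to 19 that held at least 20 reads in the atRA and embryoid body (EB) libraries together. They were 225916 of 247240 autosomal bins. Of the others, 10241 bins held no read in either library and 11083 held fewer than 20 reads. At the edge of this minimum, the 1175 bins with exactly 20 reads averaged 8.99 reads in atRA, 11.01 in EB and 11.6 in undifferentiated cells, and the 1009 bins with 19 reads averaged 8.42, 10.6 and 10.9 in the same 3 libraries. Loci higher in one way of differentiation than in the other were then chosen by size, so their own atRA and EB values are given as a description.

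The libraries came from chromatin immunoprecipitation and sequencing. The atRA cells were XT67E1 cells treated with all-trans retinoic acid for 4 days. The EBs were XT67E1 cells grown for 10 days as aggregates without LIF, the cytokine that keeps ES cells undifferentiated. The undifferentiated cells grew on gelatin in serum with LIF. The strain of XT67E1 is given as C3H/Pgk*129. H3K4me3, a mark of active promoters, was measured in the same 3 states of XT67E1, and H3K27me3 also in EBs and undifferentiated cells of LF2 and E14, which are 129/Ola lines. E14 is known as a male line, and the other lines as female. Each group is 1 library, so atRA and EB were compared with no test, and the labels name no separate cultures. The agent and the number of days differ together between atRA and EBs and cannot be told apart. EBs hold several cell types, and a mark on fewer cells cannot be told apart from less mark per cell.

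As background, H3K27me3 is placed by Polycomb repressive complex 2 on silent chromatin, above all around CpG-rich start sites of developmental genes that a cell type does not use. In ES cells many of these start sites also carry H3K4me3, a state called bivalent. Retinoic acid acts through nuclear receptors that bind DNA and drives ES cells mainly toward neural and extraembryonic fates, depending on dose and culture, whereas EBs form derivatives of all germ layers. Loci are named below by mm9 position, since no gene annotation of this build was used here.

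The 3 XT67E1 H3K27me3 libraries held 8380007 reads each, a number that was equal across the deposited files of the set. On the autosomes there were 8014473 reads in atRA, 7952736 in EB and 8021002 in undifferentiated cells. The reads lay differently within each library. Low-coverage autosomal bins, those with up to the median coverage over the 3 libraries, held 2092151 reads in atRA, 2474184 in EB and 2297604 in undifferentiated cells. Scaling to these bins in place of all autosomal reads moved every atRA over EB ratio up by 0.25 on the log2 scale. H3K4me3 libraries held 2252395 reads each, and LF2 and E14 libraries 4531733 each.

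The reads of the atRA library were more concentrated in regions rich in H3K27me3 in undifferentiated cells, and the EB library was flatter. The 5% of autosomal bins with the most reads in undifferentiated cells held 17.5% of autosomal reads in atRA, 14.5% in EB and 16.1% in undifferentiated cells. When the bins were ranked by undifferentiated LF2 and E14 cells, which played no part in the comparison, the top 5% held 17.0% in atRA, 14.6% in EB and 14.8% in undifferentiated XT67E1 cells. In that ranking the EB and undifferentiated libraries lay close together and the atRA library stood above both.

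The ratio of atRA to EB followed the starting level. Over all compared bins its median was -0.06 on the log2 scale, with quartiles of -0.42 and 0.26, and it was 0.19 under low-coverage scaling. Bins with 11 to 20 undifferentiated reads averaged 16.9 reads in atRA and 21.1 in EB, with a median log2 ratio of -0.32. In bins with 121 to 200 undifferentiated reads the means were 173 in atRA and 139 in EB, and the median was 0.33. Between these the median climbed through -0.14, -0.01, 0.09, 0.20 and 0.29, and above 200 undifferentiated reads it was 0.26. Under low-coverage scaling the medians ran from -0.08 in the lowest class to 0.59 in the class of 121 to 200 reads, since that scaling adds the same 0.25 to each, and the level at which the ratio crosses 0 moved.

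**Figure D1:**
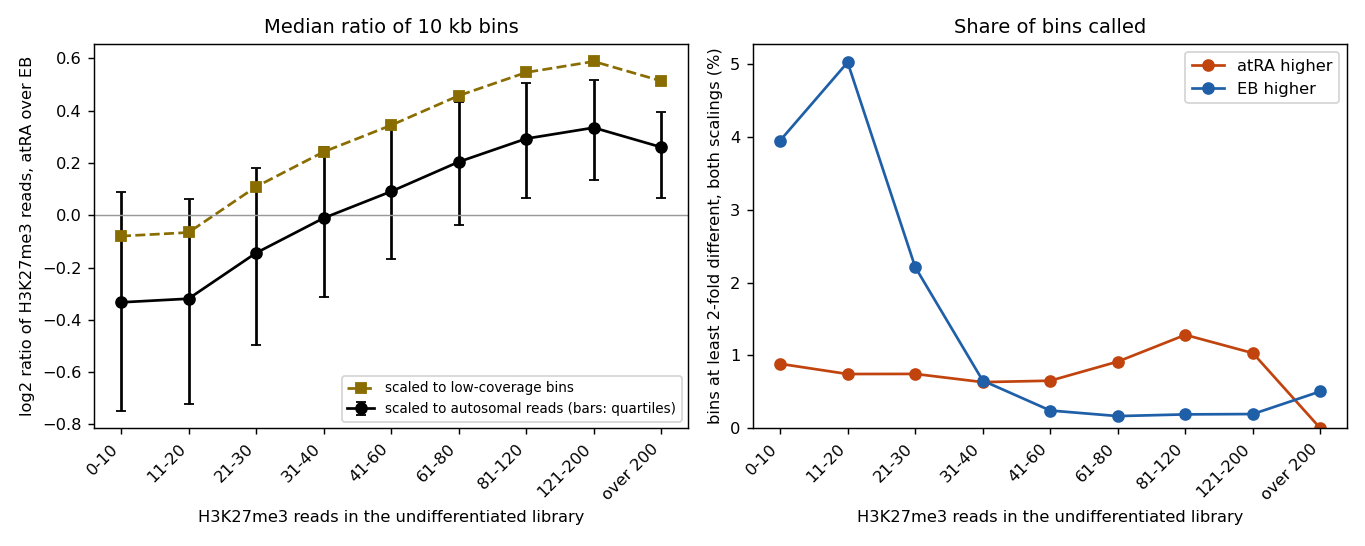
The log2 ratio of H3K27me3 in atRA over EB by the number of reads that a 10 kb bin held in undifferentiated cells, and the share of bins called in each direction. The median lies at -0.32 in bins with 11 to 20 undifferentiated reads and at 0.33 in bins with 121 to 200 under autosomal scaling.

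A bin was called higher when it differed at least 2-fold, with 1 read added to each library, and when the exact binomial 95% interval of the ratio excluded equality. This interval covers counting error only. It was not adjusted for the 225916 bins compared, and the share of bins that counting error alone would call is not given here. Under autosomal scaling 1671 bins (0.74%) were called higher in atRA and 11445 (5.07%) higher in EB. Under low-coverage scaling 7293 bins (3.23%) were called higher in atRA and 4569 (2.02%) higher in EB, so the direction with more calls turned with the scaling. The loci described here were called under both scalings: 1671 bins (0.74%) higher in atRA and 4569 (2.02%) higher in EB. Because low-coverage scaling adds 0.25 to every log2 ratio, autosomal scaling set the rule for atRA and low-coverage scaling set it for EB. On the autosomal scale used for the ratios below, bins higher in EB thus had to lie farther from 0. Sizes of ratios are therefore not comparable between the 2 directions.

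The direction with more calls also changed with depth. Among bins with at least 50 reads, 946 were higher in atRA and 932 in EB under both scalings. Among bins with at least 100 reads, 320 were higher in atRA and 83 in EB. The share called higher in atRA was 0.746% in bins with 11 to 20 undifferentiated reads and 1.28% in those with 81 to 120. The share called higher in EB was 5.02% and 0.192% in the same 2 classes. Bins higher in EB were thus mostly bins of low coverage, where the counting intervals are wide.

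Most called bins had an undifferentiated level between those of the differentiated states. In bins higher in atRA, the median count was 38 reads in atRA, 16 in EB and 29 in undifferentiated cells, and the undifferentiated count lay between the others in 81.6% of them. In bins higher in EB, the medians were 10 reads in atRA, 29 in EB and 19 in undifferentiated cells, and the undifferentiated count lay between in 90.2%. Over all compared bins the undifferentiated count lay between in 34.1%. Choosing bins for a large ratio of atRA to EB favours such an order, so these shares are a description.

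The undifferentiated library gives each bin a starting point, and atRA and EB were set against it separately. Both comparisons share that library and used autosomal scaling alone. Low-coverage bins held the fewest reads in atRA and the most in EB. Scaling to them would therefore raise atRA and lower EB against undifferentiated cells, and the shares below were not computed that way. Over all compared bins, 0.858% were called higher in atRA than in undifferentiated cells and 2.00% lower, and 2.28% were called higher in EB than in undifferentiated cells and 0.743% lower. Of the 1671 bins higher in atRA than in EB, 384 (23.0%) were called lower in EB than in undifferentiated cells and 125 (7.48%) higher in atRA. The other 1162 (69.5%) passed neither step and reached 2-fold only from end to end. Of the 4569 bins higher in EB, 1423 (31.1%) were called lower in atRA than in undifferentiated cells alone, 880 (19.3%) higher in EB alone, 10 both ways and 2256 (49.4%) in neither step. Because atRA and EB values chose these bins, the shares say how the called bins are made up and nothing more.

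Called bins fell into 1604 loci higher in atRA and 3807 higher in EB when bins up to 10 kb apart were merged. An unknown part of these loci, above all of single bins, can be counting error, since the intervals were not adjusted for the number of bins. The forms of the loci differed, but so did the number of called bins to merge, 1671 in atRA and 4569 in EB. A different scaling also set the rule in each direction, so the widths depend on these rules as well. Higher in atRA, 1542 loci were single bins, 62 held several bins, and the widest spanned 40 kb. Higher in EB, 3213 were single bins, 594 held several bins, 37 spanned 50 kb or more, and the widest spanned 110 kb. At least 100 reads in the atRA and EB libraries together were held by 321 loci higher in atRA and 348 higher in EB.

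Under these rules the loci higher in atRA were narrower and rested on more reads. At chr10:79480001-79490000 there were 162 reads in atRA, 54 in EB and 91 in undifferentiated cells, a log2 ratio of 1.56 (1.12 to 2.05). The 30 kb locus chr7:51870001-51900000 held 373 reads in atRA, 142 in EB and 195 in undifferentiated cells, a ratio of 1.38 (1.10 to 1.67). The 40 kb locus chr2:32180001-32220000 held 523, 226 and 328 reads, a ratio of 1.20 (0.97 to 1.43). In these 3 loci the undifferentiated level lay between, below atRA and above EB, and every step had an interval that excluded equality.

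Other loci higher in atRA had an EB level at or near that of undifferentiated cells. At chr17:35200001-35220000 there were 242 H3K27me3 reads in atRA, 97 in EB and 94 in undifferentiated cells. At chr10:80740001-80750000 there were 184, 72 and 75 reads in the same 3 states. Their log2 ratios of EB over undifferentiated cells were 0.06 (-0.37 to 0.48) and -0.05 (-0.53 to 0.44), with intervals that include equality. The 40 kb locus chr9:108720001-108760000 held 607 reads in atRA, 302 in EB and 239 in undifferentiated cells, so that both differentiated states lay above the undifferentiated one. Its log2 ratio of atRA over EB summed over the locus was 0.99 (0.79 to 1.20), just under 2-fold, and the sum takes in 1 uncalled bin between the 3 called ones. The bin chr7:31260001-31270000 had 78 reads in atRA, 23 in EB and 15 in undifferentiated cells, the largest ratio of atRA over undifferentiated cells among the 17 named loci higher in atRA, at 2.30 (1.57 to 3.28).

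Other loci higher in atRA had less of the mark in EB than at the start. At chr11:120800001-120820000 there were 146 reads in atRA, 68 in EB and 148 in undifferentiated cells. The bin chr7:69020001-69030000 had 27 reads in atRA, 5 in EB and 26 in undifferentiated cells. At chr10:69440001-69460000, chosen after its values were seen, there were 169, 74 and 225 reads, and there atRA also lay below undifferentiated cells, with a log2 ratio of -0.41 (-0.71 to -0.12). Of the 321 loci higher in atRA with at least 100 reads, 36 were called only as lower in EB than in undifferentiated cells, 31 only as higher in atRA, and 254 in neither step.

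The loci higher in EB included broad stretches with less of the mark in atRA cells. The widest, chr9:72620001-72730000, held 202 H3K27me3 reads in atRA, 620 in EB and 525 in undifferentiated cells. Its log2 ratio was -1.62 (interval -1.87 to -1.40). Here atRA stood apart: the log2 ratio was -1.37 (-1.62 to -1.14) in atRA over undifferentiated cells and 0.25 (0.08 to 0.42) in EB over undifferentiated cells. The 100 kb locus chr14:26370001-26470000 held 237 reads in atRA, 720 in EB and 532 in undifferentiated cells, a log2 ratio of -1.61 (-1.83 to -1.40). The 90 kb locus chr6:72650001-72740000 held 171, 501 and 315 reads in the same 3 states, a ratio of -1.56 (-1.82 to -1.31). In these 3 broad loci the atRA library was lowest and EB highest, and the undifferentiated count lay between.

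Narrower loci higher in EB reached larger ratios. The locus chr16:21660001-21680000 held 35 reads in atRA, 164 in EB and 93 in undifferentiated cells, a log2 ratio of -2.21 (-2.81 to -1.71). At chr9:71600001-71620000 there were 45 reads in atRA, 192 in EB and 117 in undifferentiated cells, a ratio of -2.08 (-2.61 to -1.63). Both lay below the undifferentiated level in atRA and above it in EB, with intervals that exclude equality. The bin chr9:121230001-121240000, first in the order of counting limits, had 2 reads in atRA, 27 in EB and 5 in undifferentiated cells. Its log2 ratio of -3.23 has an interval of -6.88 to -1.77, so the size of the difference is hardly fixed at this depth.

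In a smaller class EB, and not atRA, was called at least 2-fold from the undifferentiated level. At chr17:37180001-37220000 there were 78 H3K27me3 reads in atRA, 310 in EB and 70 in undifferentiated cells. The log2 ratio was -1.99 (-2.38 to -1.64) for atRA over EB, 0.16 (-0.33 to 0.64) for atRA over undifferentiated cells and 2.14 (1.78 to 2.55) for EB over undifferentiated cells. Further loci of this class were chosen after their values were seen, as those with at least 100 reads that come first in the order of counting limits. Of these, chr5:120120001-120140000 held 77 reads in atRA, 267 in EB and 52 in undifferentiated cells. The locus chr2:30540001-30580000 held 54, 196 and 59 reads in the same 3 states, and chr11:94920001-94940000 held 45, 165 and 67. Their log2 ratios of atRA over undifferentiated cells were 0.56 (0.04 to 1.10), -0.12 (-0.69 to 0.43) and -0.56 (-1.15 to -0.01) in that order, and those of EB over undifferentiated cells were 2.35, 1.73 and 1.30. In this class H3K27me3 was far above the undifferentiated level in EBs, and atRA lay on either side of it. Of the 348 loci higher in EB with at least 100 reads, 48 were called only as higher in EB than in undifferentiated cells, 60 only as lower in atRA, and 240 in neither step.

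**Figure D2:**
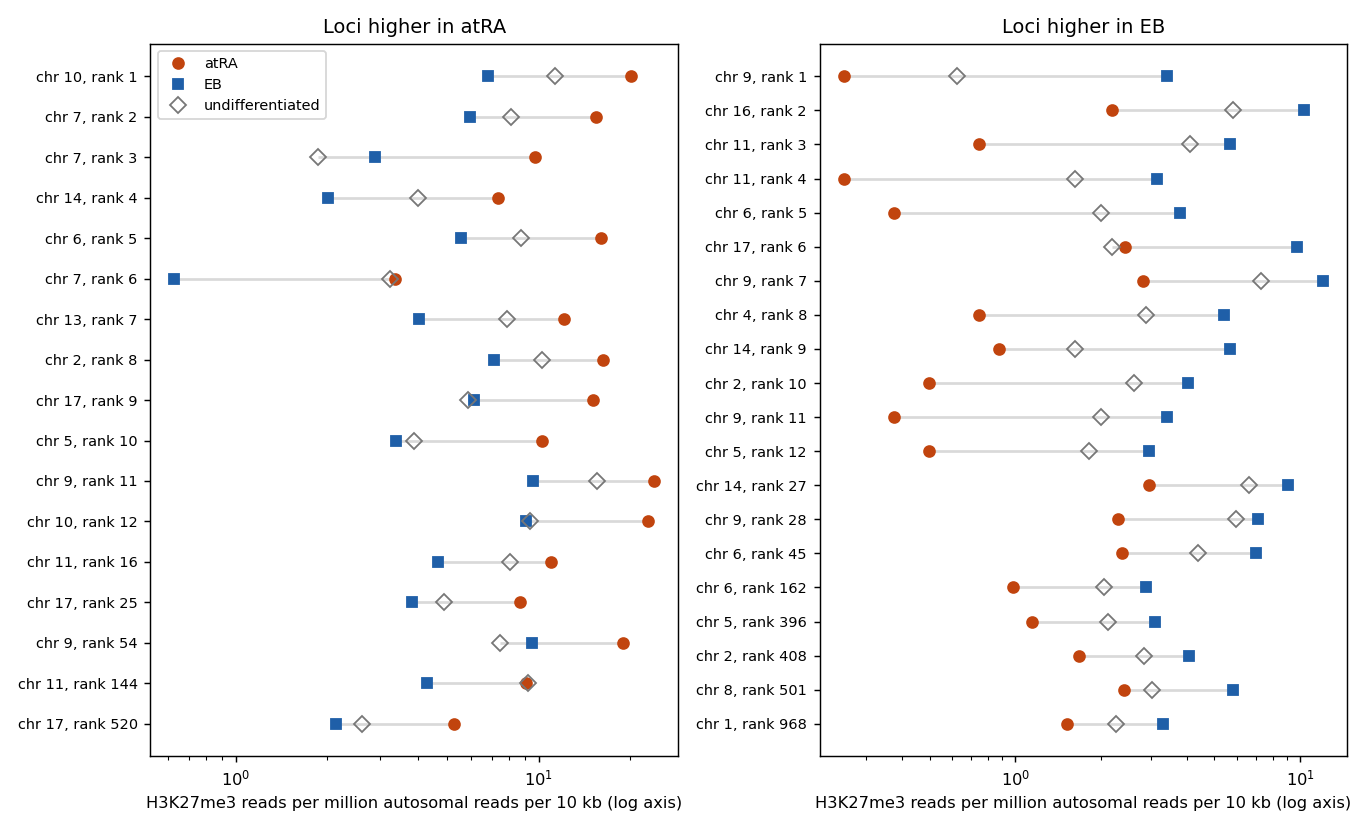
H3K27me3 as RPM, reads scaled to autosomal reads, per 10 kb (log axis) in atRA, EB and undifferentiated cells at the 17 named loci higher in atRA and the 20 named loci higher in EB, 1 library per point. The undifferentiated level lies between the others at most loci, and at chr 17, rank 6, it lies beside atRA, with 78 reads in atRA, 310 in EB and 70 in undifferentiated cells.

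**Figure D3:**
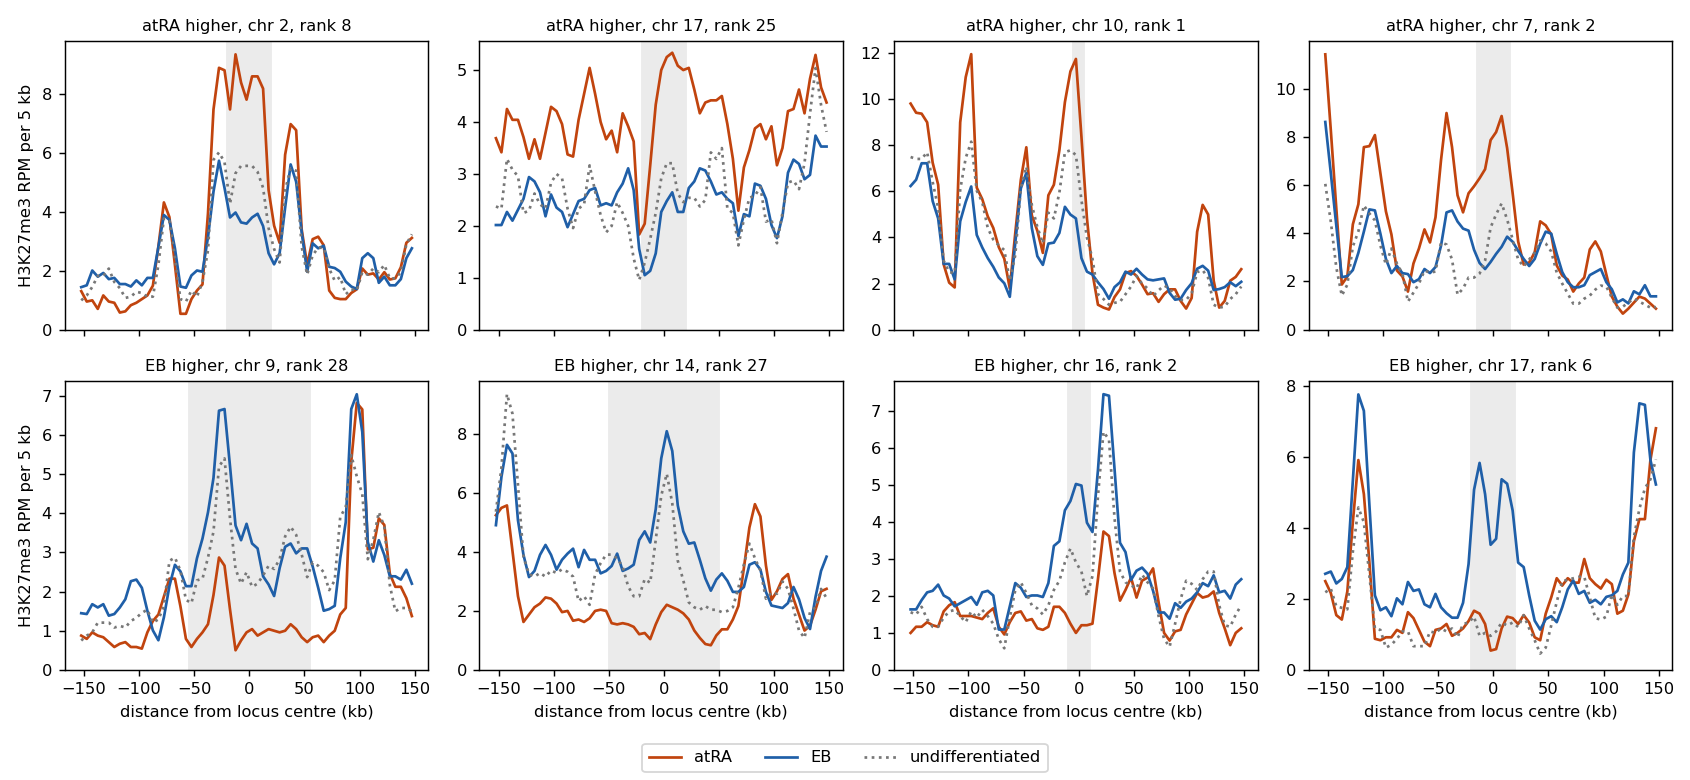
H3K27me3 as RPM, reads scaled to autosomal reads, per 5 kb, as a running mean over 3 steps, by distance from the centre of 4 loci higher in atRA and 4 higher in EB; the shaded band is the locus. The locus on chromosome 9, rank 28, lies below EB through the band in atRA, where a small peak is left, with 202 reads in atRA, 620 in EB and 525 in undifferentiated cells.

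At 10 kb the bins beside called bins leaned the same way as the called bins in both directions of change. Only uncalled bins are counted here. At 10 kb from bins higher in atRA the median log2 ratio was 0.12 on one side and 0.14 on the other, against -0.06 over all compared bins, and at 100 kb it was 0.04 and 0.05. The ratio also rises with coverage. Its median was -0.01 in compared bins with 31 to 40 undifferentiated reads and 0.09 in those with 41 to 60. No value at matched coverage was computed for these flanks. At 10 kb from bins higher in EB the medians were -0.54 and -0.53, below the -0.32 of bins with 11 to 20 undifferentiated reads, and they were -0.21 on both sides at 100 kb, where no value at matched coverage was computed. From reads pooled over the flanking bins, the log2 ratio at 100 kb was 0.10 and 0.09 beside bins higher in atRA and -0.08 and -0.07 beside bins higher in EB, so the reach of one side beyond the other depends on the measure. Around called bins with at least 100 reads, the flanks at 10 kb stood at 0.36 and 0.37 beside bins higher in atRA. Beside bins higher in EB they stood at -0.89 and -0.82. Over all compared bins with at least 100 reads the median was 0.21, though the flanking bins had no such minimum. All these flank values are under autosomal scaling, and low-coverage scaling adds 0.25 to each. How far the flanks of the 2 directions differ in size therefore depends on the scaling. Flanking bins were not used to choose the called bin, but they share its region, its coverage and reads whose fragments cross the border.

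**Figure D4:**
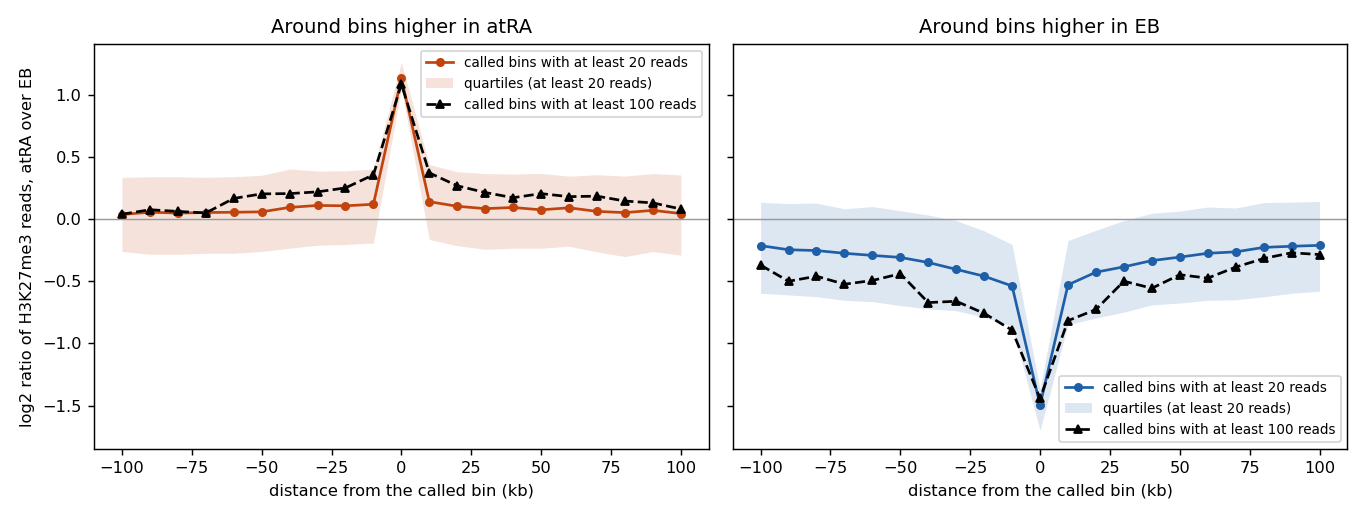
Median log2 ratio of H3K27me3 in atRA over EB in uncalled bins by their distance (kb) from a called bin, for bins higher in atRA and bins higher in EB. At 10 kb from bins with at least 100 reads the median is 0.36 and 0.37 beside bins higher in atRA, and -0.89 and -0.82 beside bins higher in EB. Values are under autosomal scaling, and low-coverage scaling adds 0.25 to each.

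Whole megabases differed little. Over 2386 windows of 1 Mb the median log2 ratio was -0.01, the lowest was -0.64 and the highest 0.41. The windows that differed at least 1.25-fold were 13 higher in atRA and 73 higher in EB. These window values are under autosomal scaling. Low-coverage scaling adds 0.25 to each log2 ratio, so more windows would pass in atRA and fewer in EB. Which direction has more windows therefore depends on the scaling. The window with the highest ratio, the 1 Mb from 12000001 on chromosome 17, held 5677 reads in atRA, 4235 in EB and 3927 in undifferentiated cells. That window held 7 bins higher in atRA, the most of any window and equalled in 1 other. Of the 2386 windows, 1344 held no bin higher in atRA and 803 held no bin higher in EB. Bins higher in EB were spread unevenly, with a median of 1 per window. The most bins higher in EB in any window was 16, reached with 16 of 99 bins in the window from 20000001 on chromosome 2. It was also reached with 16 of 100 in that from 72000001 on chromosome 9, which holds the widest locus. The ratio of a window and its undifferentiated H3K27me3 level had a Spearman correlation of 0.37 across windows, given as a description, since windows of 1 genome share their libraries and depth.

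H3K4me3, which played no part in choosing the loci, had the same median ratio in called bins as over all bins at a minimum of 10 reads. The median log2 ratio of H3K4me3 in atRA over EB was 0.00 in bins higher in atRA, 0.00 in bins higher in EB and 0.00 over all bins with at least 10 H3K4me3 reads. In each set this is the value of equal counts in atRA and EB, so at such low counts the median can hide a small shift. Over those bins 1.24% were called higher in atRA and 1.95% higher in EB in H3K4me3. Among the 1128 bins with higher H3K27me3 in atRA that had enough H3K4me3 reads, 12 (1.06%) had higher H3K4me3 in atRA and 43 (3.81%) in EB. Among 4184 bins with higher H3K27me3 in EB, 61 (1.46%) had higher H3K4me3 in atRA and 86 (2.06%) in EB, close to the share over all bins. With a minimum of 20 H3K4me3 reads, the median was -0.21 in the 232 bins higher in atRA, 0.07 in the 1776 bins higher in EB and 0.00 in all 54859 bins. Bins with at least 30 H3K4me3 reads in undifferentiated cells made up 2.33% of the bins higher in atRA and 11.5% of those higher in EB, against 3.74% of all compared bins.

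Bins with at least 100 H3K27me3 reads were also taken alone, and over all of them 1.33% had higher H3K4me3 in atRA and 2.17% in EB. Of 311 bins with higher H3K27me3 in atRA, 3 (0.965%) had higher H3K4me3 in atRA and 18 (5.79%) in EB. Of 82 bins with higher H3K27me3 in EB, 10 (12.2%) had higher H3K4me3 in atRA and 2 (2.44%) in EB. By locus, 18 of 314 loci higher in atRA and 6 of 348 loci higher in EB had an H3K4me3 difference of at least 2-fold the other way, and 3 in each direction the same way. No matching share over uncalled stretches was computed for the locus counts, so they are a description. These are counts in single libraries and carry no test.

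The loci where both marks differed in opposite directions are described next and were chosen after their values were seen. At chr15:79840001-79850000 there were 231 H3K27me3 reads in atRA, 99 in EB and 95 in undifferentiated cells, and 19 H3K4me3 reads in atRA, 78 in EB and 29 in undifferentiated cells. At chr5:121130001-121150000 there were 308, 134 and 147 H3K27me3 reads and 24, 82 and 60 H3K4me3 reads in the same 3 states. The 30 kb locus chr12:55280001-55310000 held 219 H3K27me3 reads in atRA, 104 in EB and 238 in undifferentiated cells, and 51 H3K4me3 reads in atRA, 111 in EB and 42 in undifferentiated cells. There the atRA cells lay near the undifferentiated level in both marks, and EBs had less H3K27me3 and more H3K4me3.

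The reverse order was seen at 6 of the 348 loci with higher H3K27me3 in EB and at least 100 reads, and 3 differed the same way. At chr6:52090001-52110000 there were 91 H3K27me3 reads in atRA, 297 in EB and 240 in undifferentiated cells, and 73 H3K4me3 reads in atRA, 24 in EB and 30 in undifferentiated cells. The log2 ratio of atRA over EB was -1.71 (-2.07 to -1.37) for H3K27me3 and 1.57 (0.92 to 2.34) for H3K4me3. Both marks left the undifferentiated level in atRA cells, one downward and the other upward. At chr2:115880001-115890000 there were 32 H3K27me3 reads in atRA, 95 in EB and 95 in undifferentiated cells, and 52, 24 and 13 H3K4me3 reads in the same 3 states. At chr19:9060001-9070000 there were 31, 87 and 25 H3K27me3 reads and 76, 29 and 58 H3K4me3 reads, so that here EB had left the undifferentiated level in both marks.

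**Figure D5:**
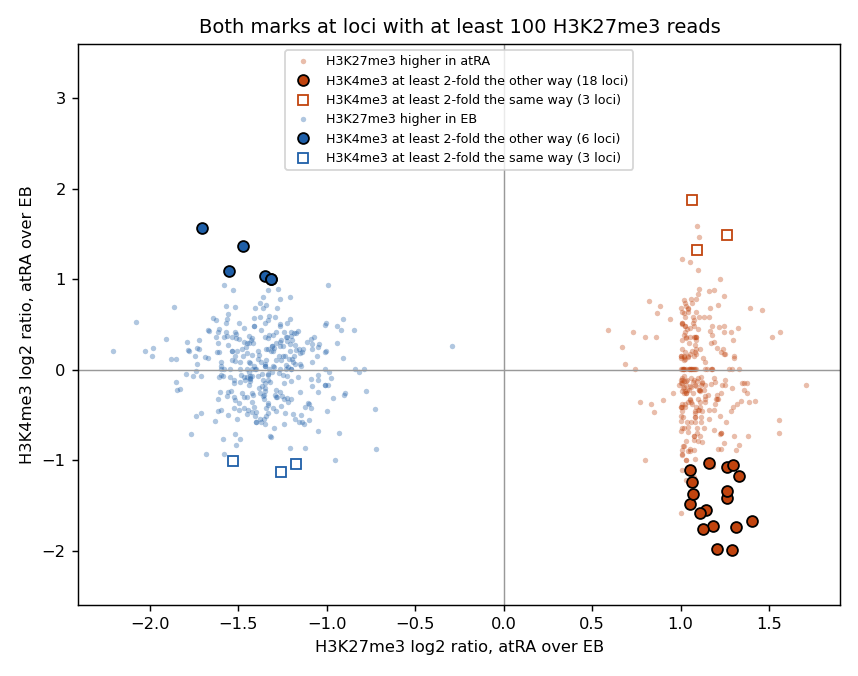
Log2 ratios of atRA over EB for H3K27me3 (horizontal axis) and H3K4me3 (vertical axis) at loci with at least 100 H3K27me3 reads; large filled points are loci where H3K4me3 differed at least 2-fold the other way. These are 18 of 314 loci higher in atRA and 6 of 348 loci higher in EB, and 3 in each direction differed the same way.

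Smaller H3K4me3 ratios the other way were seen at most of the loci named for the most H3K4me3 reads. Among those higher in atRA, the log2 ratio of H3K4me3 was -0.99 (-1.47 to -0.54) at chr11:120800001-120820000, -0.57 (-1.02 to -0.14) at chr17:27690001-27700000 and -0.17 (-0.62 to 0.28) at chr9:108720001-108760000. Among those higher in EB, it was 0.48 (0.23 to 0.74) at chr5:31470001-31520000, 0.48 (0.22 to 0.75) at chr8:26860001-26900000 and 0.30 (0.03 to 0.58) at chr1:63220001-63290000. The interval included equality only at the locus of chromosome 9. Other loci showed another order. At chr17:37180001-37220000, where H3K27me3 was above the undifferentiated level in EBs, there were 81 H3K4me3 reads in atRA, 73 in EB and 152 in undifferentiated cells, so that H3K4me3 was low in both differentiated states. At chr5:120120001-120140000 the H3K4me3 counts were 129 in atRA, 104 in EB and 324 in undifferentiated cells. In both loci H3K4me3 was below the undifferentiated level in atRA, without more H3K27me3 or with little more, and in EB, with much more.

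LF2 and E14, which were differentiated only as EBs, show whether the loci differed in the EBs of other lines. For bins higher in atRA, 36 of 1275 (2.82%) were called higher in EB than in undifferentiated cells of LF2 by size and 35 (2.75%) lower, against 4.01% and 2.44% over all bins. In E14, 43 of 1341 (3.21%) were called higher and 28 (2.09%) lower, against 2.04% and 2.94%. For bins higher in EB the lines gave opposite balances. In LF2 185 of 2826 (6.55%) were higher and 49 (1.73%) lower, and in E14 59 of 3647 (1.62%) were higher and 191 (5.24%) lower. The shares over all bins leaned the same 2 ways. The median log2 ratio over all compared bins also changed with coverage, from 0.09 to -0.17 at 100 or more XT67E1 reads in LF2. In E14 it went from -0.003 to 0.09. No share at matched coverage was computed. The widest locus, chr9:72620001-72730000, held 247 reads in EB against 458 in undifferentiated cells of LF2, and 182 in EB against 293 in undifferentiated cells of E14, so that it was lower in EBs of both lines and not in those of XT67E1.

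EB was tested against undifferentiated cells over LF2 and E14 with limma, with the line as a block and a Benjamini-Hochberg adjusted p under 0.05. With 4 libraries the p-values rest on the spread pooled over bins. Of 194371 bins, 147 (0.0756%) rose and 165 (0.0849%) fell. Among the 1324 tested bins that were higher in atRA than in EB in XT67E1, 0 rose and 3 (0.227%) fell. At an unadjusted p under 0.05 limma had 44 of them (3.32%) that rose and 41 (3.10%) that fell, against 3.67% and 3.51% of all bins. Among the 3417 tested bins higher in EB, 9 (0.263%) rose and 2 (0.0585%) fell, and at the unadjusted level 116 (3.39%) rose and 104 (3.04%) fell. At that level neither set of bins stood above the share over all bins.

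Of the 3 bins higher in atRA that fell, 2 lie in the locus chr12:55280001-55310000. The bin chr12:55300001-55310000 held 9 reads in EB against 44 in undifferentiated cells of LF2, and 19 against 42 in E14. Its log2 change was -1.63 (SE 0.33, limma adjusted p = 0.002694). XT67E1 had 71 H3K27me3 reads there in atRA, 27 in EB and 81 in undifferentiated cells. The lower level in EBs was thus seen in all 3 lines, and atRA cells of XT67E1 did not show it. These calls for bins higher in atRA numbered 0 with low-coverage scaling and without the line as a block.

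Of the 9 bins higher in EB that rose, the one with the largest change, chr14:71020001-71030000, held 57 reads in EB against 14 in undifferentiated cells of LF2, and 123 against 21 in E14. Its log2 change was 2.23 (SE 0.33, limma adjusted p = 1.668e-07). In XT67E1 it held 35 H3K27me3 reads in atRA, 86 in EB and 19 in undifferentiated cells, and its H3K4me3 counts were 26, 36 and 94 in the same states. The bin chr3:34550001-34560000 held 59 reads in EB against 25 in undifferentiated cells of LF2, and 165 against 26 in E14, a change of 1.92 (SE 0.34, limma adjusted p = 7.246e-05). In XT67E1 it had 41 reads in atRA, 114 in EB and 29 in undifferentiated cells. At chr6:51950001-51960000 there were 58 reads in EB against 32 in undifferentiated cells of LF2, and 147 against 20 in E14, and XT67E1 had 19 in atRA, 78 in EB and 20 in undifferentiated cells. All 3 bins held more H3K27me3 in the EBs of each line than in its undifferentiated cells, and in XT67E1 atRA cells stayed nearer the undifferentiated count than EBs did. With low-coverage scaling 2 bins higher in EB rose, and 2 without the block.

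Between chromosomes the autosomes differed little and X stood apart. The read density of atRA over EB was between 0.973 on chromosome 9 and 1.03 on chromosome 17. On chromosome X, which was left out of the loci, it was 0.849 (0.845 to 0.853), with 365436 reads in atRA, 427152 in EB and 358892 in undifferentiated cells. Of 13590 X bins, 47 (0.346%) were higher in atRA and 550 (4.05%) higher in EB. As background, H3K27me3 spreads over the inactive X of differentiating female cells. Under low-coverage scaling the X ratio was 1.01 and the autosomes lay between 1.16 and 1.23, since that scaling moves every chromosome by the same factor. The extremes of the autosomes for the share of bins higher in atRA were 1.21% on chromosome 17 and 0.417% on chromosome 8. For the share higher in EB they were 2.98% on chromosome 11 and 1.41% on chromosome 8. Chromosome 8 was also read more deeply, with 648408 reads in atRA and 624849 in EB over 12222 bins. Chromosome 7 held 454717 and 456379 over 12341 bins. The part of depth in these shares was not tested.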

How the data were processed

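The deposited files list mapped intervals of 200 bp, 1 read per line, with positions and no value or strand. The build is mm9 per the submitters' processing notes. Neither an aligner nor a filter or a rule for the interval length is given in the sources used. The authors deposited equal read numbers within a set, so totals say nothing about the strength of the pull-down. No interval was listed more than once in a file.

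Interval midpoints were counted in 10 kb bins (Python 3.11.15, NumPy 2.4.6, SciPy 1.17.1, pandas 2.3.3). Ratios used counts plus 1, scaled to autosomal reads or to low-coverage bins, which understates the ratio of bins with few reads. Calls by size against undifferentiated cells, in XT67E1, LF2 and E14, used autosomal scaling alone. Called bins up to 10 kb apart were merged, and counts over a locus were summed. Named loci are, in each direction, the 12 with the counting limit farthest from 0, the 5 widest and the 3 with the most H3K4me3 reads. All intervals cover counting error only.

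LF2 and E14 were tested two-sided with limma 3.58.1 in R 4.3.3 on log2 values of bins with at least 40 reads over the 4 libraries. Libraries of a line come from the same cell line, so the line pairs them and is the block. The moderated test had 194371 degrees of freedom in total, nearly all of them pooled over bins, so a p-value can be smaller than the spread between the 2 lines would give. The scripts were tested on simulated data.

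The loci, the rules and the lists were chosen with earlier results of these data known. Gene lists, gene names and sequences are not reported, since no mm9 genome or annotation was used here. Alternatives were other scalings, read minimums, pseudocounts, bin sizes, folds and gaps, limma voom and no block. The minimum of 100 reads, and loci from 5 kb or shifted bins, were added after seeing the data.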

Additional observations from a re-analysis of the deposited data

Results flagged for a closer look

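At 5 of the loci, EBs of XT67E1 and EBs of E14 differed from their own undifferentiated cells in opposite directions, each by at least 2-fold by size. Called loci numbered 1604 higher in atRA and 3807 higher in EB, and no share of all bins with such an opposite order is given. The EB counts of XT67E1 also helped to choose these loci, and E14 counts were as low as 12 in EB against 29 in undifferentiated cells. With 1 library per state in each line, the difference between the lines was not tested, and no explanation was examined. At chr12:101380001-101400000 the log2 ratio of EB over undifferentiated cells was 1.43 in XT67E1 and -1.14 in E14, with 79 reads in EB against 29 in undifferentiated cells of XT67E1 and 14 against 32 in E14. LF2 had 19 reads there in each state. At chr12:114290001-114310000 it was 1.12 in XT67E1 and -1.21 in E14, and LF2 had 30 reads in EB against 18 in undifferentiated cells. At chr17:48040001-48050000 it was 1.50 in XT67E1 and -1.03 in E14, and LF2 had 42 reads in EB against 45 in undifferentiated cells. The locus chr2:30610001-30650000 had the most reads, 182 in EB against 86 in undifferentiated cells of XT67E1 and 136 against 289 in E14, with log2 ratios of 1.09 and -1.08. LF2 had 135 reads there in EB against 262 in undifferentiated cells. The bin chr5:116640001-116650000, higher in atRA than in EB, had the reverse order, with -1.07 in XT67E1 and 1.26 in E14, and LF2 had 38 reads in EB against 60 in undifferentiated cells.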

How the results depend on the processing

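Bins called under autosomal scaling, 1671 higher in atRA and 11445 higher in EB, came to 7293 in atRA and 4569 in EB under low-coverage scaling, 946 in atRA and 2833 in EB with at least 50 reads, 320 in atRA and 183 in EB with at least 100 reads, 712 in atRA and 6560 in EB with a pseudocount of 5, 137 in atRA and 3929 in EB in 20 kb bins, and 57 in atRA and 1808 in EB at 3-fold. Bins higher in atRA came to 2610 under median-of-ratios scaling and 7047 in 5 kb bins. Loci, 1604 in atRA and 3807 in EB, came to 904 in atRA and 804 in EB with at least 50 reads and 687 in atRA and 1723 in EB with a pseudocount of 5. Loci higher in EB came to 8021 under autosomal scaling alone, and loci higher in atRA to 6377 in 5 kb bins. The cause was not tested. The median H3K4me3 ratio was 0.049 in both sets of bins under median-of-ratios scaling, and -0.21 in bins higher in atRA and 0.072 in bins higher in EB with at least 20 H3K4me3 reads. The read density of X was 1.01, of the lowest autosome 1.16 and of the highest 1.23 under low-coverage scaling. Of the named loci, 5 ratios moved by more than their counting interval, all by the constant shift of low-coverage scaling. Being called under both scalings fixed the direction of the named loci there.

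With no replicate block for the line, limma called 23 bins that rose and 9 that fell, against 147 and 165 with it, while among bins higher in atRA 0 fell, against 3, and among bins higher in EB 2 rose, against 9. With low-coverage scaling 33 rose and 22 fell, with 0 and 2 among the same bins. With voom 88 rose, and with at least 80 reads 269 fell. Leaving out LF2 or E14 leaves no residual degrees of freedom, so it gives values with no test. No paired analysis was possible for atRA against EB because each is 1 library. Depth limits bins near 20 reads, whose counting intervals are wide.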
